A study of Homo sapiens with 24 samples.

Results

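SNHG1 and GAS5 are 2 long noncoding RNA genes whose introns carry small nucleolar RNAs (snoRNAs). Their peaks were taken as all peaks on the minus strand that share at least 1 nt with chromosome 11 at 62619460 to 62623386 (SNHG1, 3927 nt) or chromosome 1 at 173833038 to 173837125 (GAS5, 4088 nt), on hg19. This gave 198 of the 269336 peaks in 7 eCLIP peak lists, 81 in SNHG1 and 117 in GAS5. eCLIP crosslinks proteins to RNA with ultraviolet light, precipitates a protein and sequences the RNA bound to it. All libraries came from unmodified 293T cells, a line derived from human embryonic kidney, grown and crosslinked the same way. They were 2 RBFOX2 libraries and 1 library with an IgG isotype control, all digested with 40 U of RNase I, and 4 SLBP libraries, of which replicates 1 and 2 received 40 U and replicates 3 and 4 received 5 U. Nothing in the labels says that replicates were separate cultures, so any p-value measures only the spread between these libraries.

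Most intronic snoRNAs are released from a host transcript when the intron is spliced out and trimmed. The snoRNA is then kept in a stable ribonucleoprotein, while the spliced host RNA is often short-lived. Box C/D snoRNAs, the main class in both genes, guide ribose methylation of ribosomal and other RNAs. In the RefSeq gene table on GRCh38.p14, the host SNHG1 holds 9 snoRNA genes, which include, from the 5' end, SNORD25, SNORD26, SNORD27, SNORD28, SNORD29, SNORD30, SNORD31 and SNORD22. GAS5 holds 11, which include, in order, SNORD74, SNORD75, SNORD76, SNORD77, SNORD44, SNORD78, SNORD79, SNORD80, SNORD47 and SNORD81. The table is on another build than the peaks and was used for names and order alone. Peaks were therefore placed by their distance from the 5' end of the gene interval and were not assigned to single snoRNAs, exons or introns. RBFOX2 is a splicing regulator that binds GCAUG elements, and SLBP binds the 3' stem-loop of histone mRNAs.

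In both genes the peaks fell into short, separate sites, most peaks lay in sites shared by all libraries, and most were below input. The number of peaks per library ran from 8 to 18 in SNHG1 and from 11 to 29 in GAS5, with RBFOX2 replicate 1 the highest in both. SNHG1 had 18 and 13 peaks in RBFOX2 replicates 1 and 2, 10 in IgG, and 9, 8, 10 and 13 in SLBP replicates 1 to 4. GAS5 had 29 and 18 in RBFOX2, 14 in IgG, and 11, 14, 15 and 16 in SLBP. Together they covered between 6.29% and 11.5% of the SNHG1 interval and between 9.83% and 16.0% of the GAS5 interval, so most of each gene held no peak in any 1 library. The peaks were narrow, with a median width of 21 to 30.5 nt in SNHG1 and 19 to 36 nt in GAS5, and the widest measured 72 nt, in SNHG1 in SLBP replicate 4. Peaks of the 7 lists that touch or overlap formed 10 sites in SNHG1 and 22 in GAS5. Of these, 6 in SNHG1 and 9 in GAS5 had a peak in each of the 7 lists, and these 15 sites held 72 of the 81 and 87 of the 117 peaks. The share of all peaks of the series that lie in such sites was not counted, so this sharing is not shown to be particular to these genes. The sites common to all lists were 36 to 117 nt wide in SNHG1 and 44 to 92 nt wide in GAS5, with gaps of 173 to 1048 nt and 165 to 738 nt between neighbours. The lists held 0 peaks on the plus strand within either interval, and 0 on the minus strand in a flank of the same length on either side. The signal was thus on the transcribed strand and within the gene intervals.

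**Figure D1:**
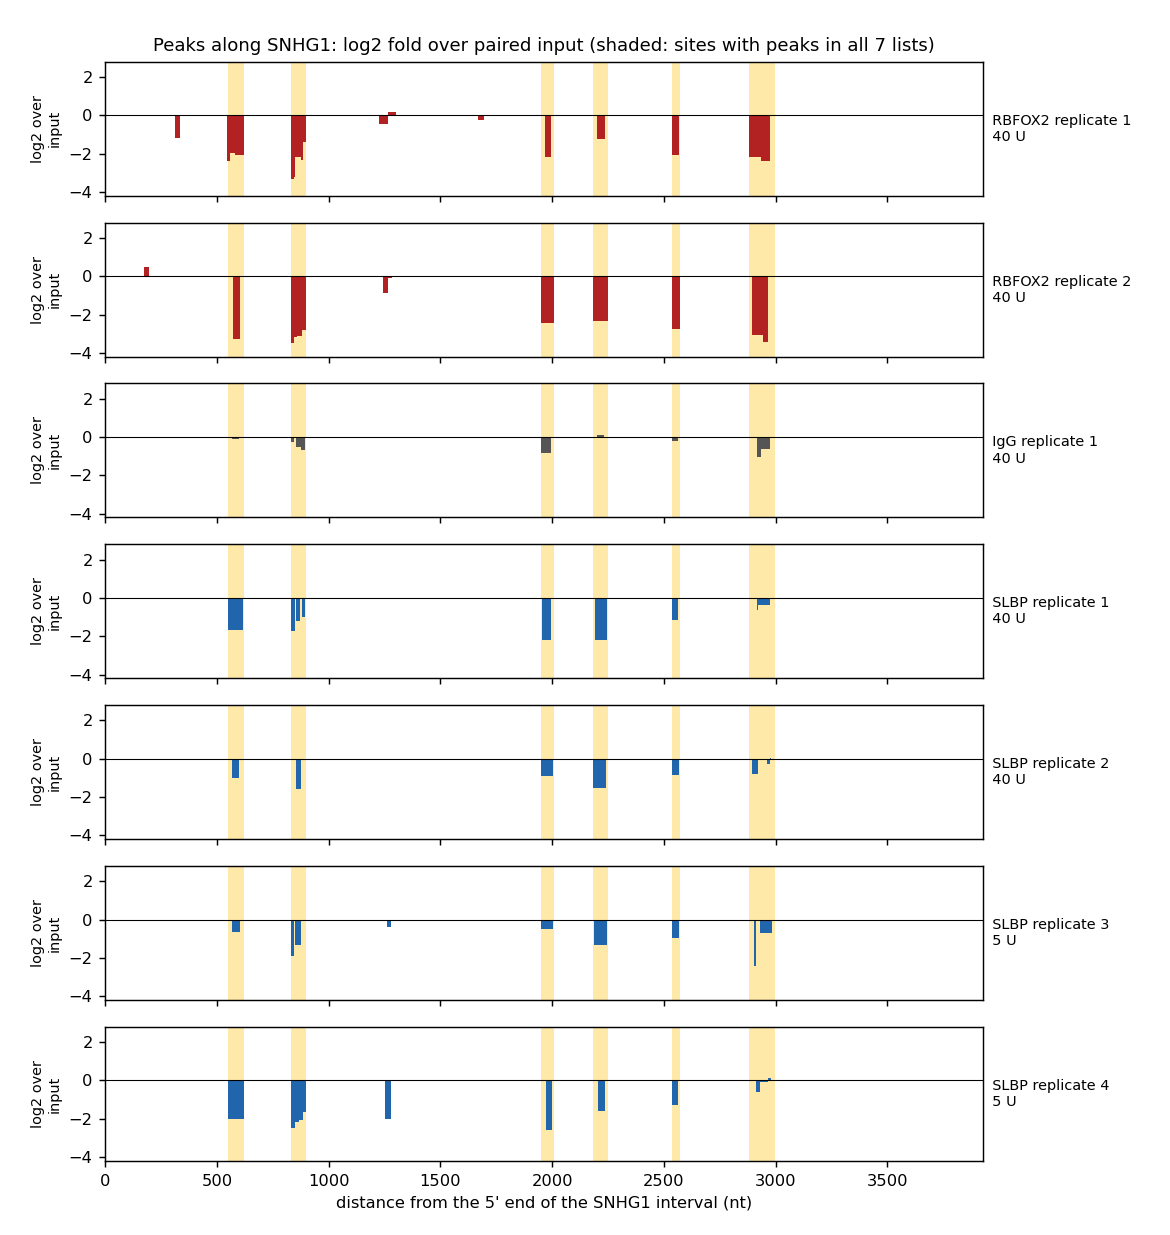
Peaks along SNHG1 in each library. The x axis is the distance from the 5' end of the interval in nt, the y axis is the authors' log2 fold over paired input, each bar is 1 peak drawn to its width, and the 6 shaded stretches are the sites with peaks in all 7 lists. Nearly all bars point below input in every library, and the bars of the RBFOX2 libraries reach furthest down.

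**Figure D2:**
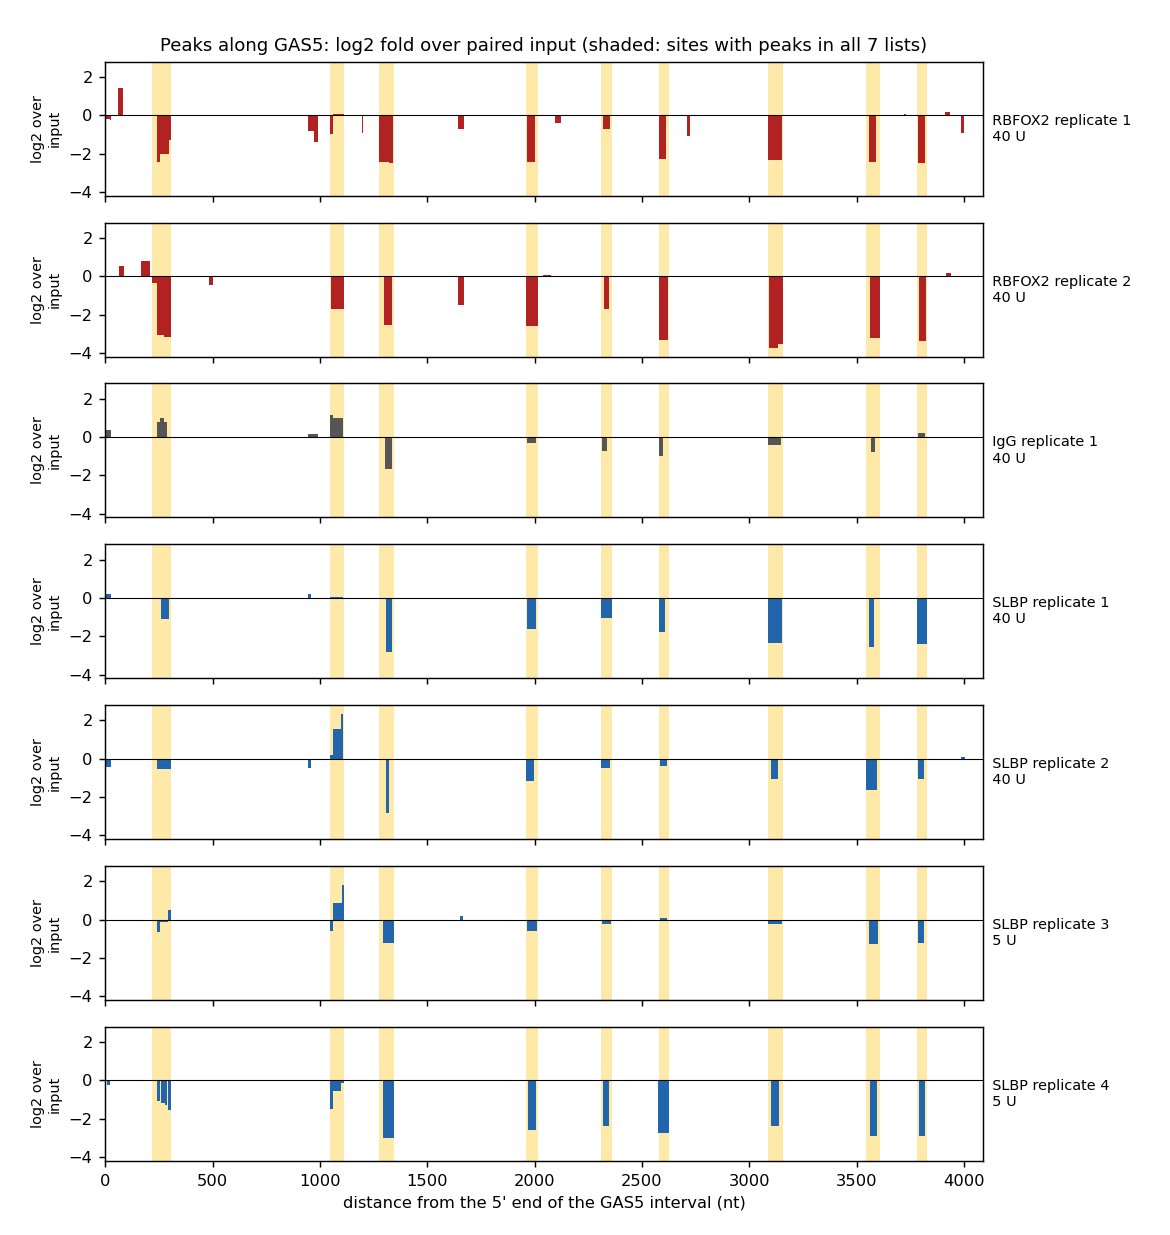
Peaks along GAS5 in each library, with the axes and bars as for SNHG1 and 9 shaded sites. At the shaded site of 1047 to 1110 nt, IgG and SLBP replicates 1, 2 and 3 lie above input as a site mean. So do IgG at 217 to 308 and 3783 to 3826 nt and, at 0.09, SLBP replicate 3 at 2578 to 2625 nt. Outside the shaded sites, 7 RBFOX2, 2 IgG and 5 SLBP peaks lie above input.

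None of the 198 peaks was enriched, where enriched means a log2 fold over input of at least 3 (8-fold) with the authors' −log10 p of at least 5. The count was 0 of 78 RBFOX2 peaks, 0 of 24 IgG peaks and 0 of 96 SLBP peaks. If 3 counts are allowed for, this leaves room for shares of up to 3.85%, 12.5% and 3.12% of peaks. These limits cover counting error only and take the peaks as independent. Pieces of 1 site, and the same site in replicate lists, are not independent, so the limits are too tight. Over the whole lists, 7.95% and 7.66% of the peaks of RBFOX2 replicates 1 and 2 were enriched, 0.180% of the IgG peaks, and 1.23%, 1.27%, 1.70% and 2.33% of the peaks of SLBP replicates 1 to 4. With such low shares in the IgG and SLBP lists, a count of 0 is near their background. The highest log2 fold in SNHG1 was 0.50, in RBFOX2 replicate 2. The highest in GAS5 was 2.33, in SLBP replicate 2.

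Peaks below input made up a larger share of the peaks of both genes than of the whole lists, in each of the 7 libraries. In SNHG1, 17 of 18 peaks of RBFOX2 replicate 1 and 12 of 13 of replicate 2 had a negative log2 fold, against 32.6% and 31.0% of the peaks of these lists. IgG had 9 of 10 below input in SNHG1, against 10.7% of its list. SLBP replicates 1 to 4 had 9 of 9, 7 of 8, 10 of 10 and 11 of 13, against 7.02%, 9.45%, 23.4% and 17.0% of their lists. GAS5, a gene named for its rise in growth-arrested cells, was less uniform. There, 25 of 29 and 14 of 18 peaks of RBFOX2 replicates 1 and 2 lay below input, and 8 of 11, 10 of 14, 9 of 15 and 15 of 16 peaks of SLBP replicates 1 to 4. IgG stood apart in GAS5, with 6 of 14 peaks below input and 8 above. Neighbouring pieces of 1 site count as separate peaks here, so these counts describe the lists and were not tested.

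RBFOX2 had the lowest folds in SNHG1. The median log2 fold of the SNHG1 peaks was −2.08 and −2.82 in RBFOX2 replicates 1 and 2, −0.57 in IgG, and −1.22, −0.87, −1.14 and −1.65 in SLBP replicates 1 to 4. Both RBFOX2 libraries lay under all 5 others, and the SLBP libraries all lay under IgG. The RBFOX2 mean was −2.45 ± 0.52 (SD, n = 2) and the SLBP mean −1.22 ± 0.33 (SD, n = 4), a difference of −1.23. The two-sided p of an exact permutation over the 6 libraries was 0.133. No smaller value is possible with groups of this size, so 0.05 was out of reach. SLBP joined 40 U and 5 U libraries here, while both RBFOX2 libraries had 40 U. Against the 40 U SLBP libraries alone, the difference was −1.41 (exact permutation p = 0.333, two-sided, n = 2 and 2). With all 4 SLBP libraries, the difference was −0.78 with a mean weighted by peak width. It was −0.70 with touching peaks joined, each at the highest fold of its pieces (exact permutation p = 0.4). It was −0.82 when each list was centred on its own median (exact permutation p = 0.267). The median of all peaks was 0.73 and 0.86 in the RBFOX2 lists and 0.66 to 1.57 in the SLBP lists. RBFOX2 was also the lower at the 1506 sites of the whole series with peaks in every list. The medians over these sites were −0.94 and −1.50 in RBFOX2 replicates 1 and 2. They were 0.38, 0.26, −0.24 and 0.11 in SLBP replicates 1 to 4. Both RBFOX2 values lay under all 4 SLBP values at 67.2% of these sites. Lower folds in RBFOX2 than in SLBP were thus not particular to SNHG1. Minus the single IgG library, the RBFOX2 mean was −1.89 and the mean of the 40 U SLBP libraries −0.48 on the log2 scale, with no replicate check for IgG. The SLBP value was −0.30 without SLBP replicate 1, −0.65 without replicate 2 and −0.81 with width weighting.

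The lowest SNHG1 peaks also lay deepest in RBFOX2. The lowest SNHG1 peak stood at −3.34 and −3.49 in RBFOX2 replicates 1 and 2, −1.72 in IgG, and −2.22, −1.60, −2.44 and −2.59 in SLBP replicates 1 to 4. The highest stood at 0.16, 0.50, 0.09, −0.35, 0.01, −0.38 and 0.15 in the same order of libraries, so no SNHG1 peak of any library lay more than 0.50 above input.

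In GAS5 the antibodies overlapped. The median log2 fold was −0.97 and −2.12 in RBFOX2 replicates 1 and 2, 0.20 in IgG, and −1.61, −0.50, −0.24 and −1.50 in SLBP replicates 1 to 4. IgG was the highest of the 7 and the only library with a median above input, and SLBP replicates 1 and 4 lay between the RBFOX2 libraries. The RBFOX2 mean was −1.54 ± 0.81 (SD, n = 2) and the SLBP mean −0.96 ± 0.70 (SD, n = 4), so the difference of −0.58 was smaller than either SD (exact permutation p = 0.533, two-sided, n = 2 and 4). Against the 40 U SLBP libraries alone, the difference was −0.49 (exact permutation p = 0.667, two-sided, n = 2 and 2). Minus IgG, the RBFOX2 mean was −1.74 and the mean of the 40 U SLBP libraries −1.26, which was −0.70 without SLBP replicate 1 and −1.81 without replicate 2.

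The lowest GAS5 peak was −3.22 and −3.74 in RBFOX2 replicates 1 and 2, −1.68 in IgG, and −2.83, −2.84, −1.28 and −3.02 in SLBP replicates 1 to 4. The highest was 1.41 and 0.77 in RBFOX2, 1.17 in IgG, and 0.19, 2.33, 1.82 and 0.04 in SLBP. GAS5 thus had peaks both well below and above input in RBFOX2, IgG and SLBP replicates 2 and 3.

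**Figure D3:**
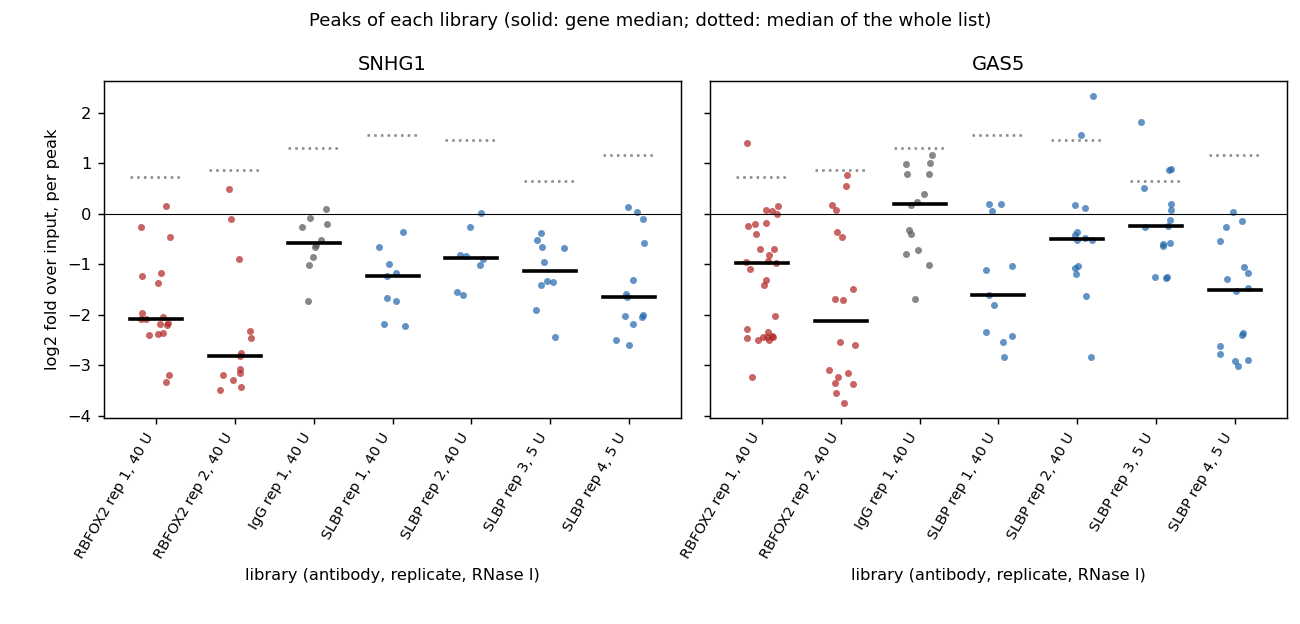
Log2 fold over input of every SNHG1 peak (left) and GAS5 peak (right) by library. Each point is 1 peak, the solid line is the median of the gene's peaks and the dotted line the median of the whole list. The solid line lies under the dotted one in all 7 libraries for both genes, with a difference between −1.80 and −3.69 on the log2 scale in SNHG1 and between −0.90 and −3.18 in GAS5.

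The medians of both genes sat low within every list. For SNHG1, 0.859% and 0.498% of the peaks of RBFOX2 replicates 1 and 2 had a lower fold than the gene's median. The same share was 3.18% in IgG and between 1.38% and 3.73% in the SLBP lists. For GAS5 it was 9.58% and 2.05% in the RBFOX2 lists, 15.6% in IgG, and 0.855%, 4.58%, 16.0% and 3.45% in SLBP replicates 1 to 4. SNHG1 thus stood nearer the bottom of the list than GAS5 in 6 of the 7 libraries, SLBP replicate 1 being the exception.

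The median folds of the SLBP libraries did not fall in order of the RNase I amount in either gene. SLBP at 40 U averaged −1.05 ± 0.25 (SD, n = 2) in SNHG1 and SLBP at 5 U averaged −1.40 ± 0.37 (SD, n = 2), a difference of 0.35 (exact permutation p = 0.667, two-sided, n = 2 and 2, where 0.333 is the smallest p possible). In GAS5 the means were −1.06 ± 0.79 and −0.87 ± 0.89 (SD, n = 2 each), a difference of −0.18 (exact permutation p = 0.667, two-sided, n = 2 and 2). Replicates 1 and 4 were the lower and replicates 2 and 3 the higher libraries in both genes, so each amount had 1 of each. The sign of both differences changed with other summaries of the peaks: weighting by width gave −0.03 in SNHG1 and 0.19 in GAS5. Peak number and covered length did follow the amount, with both 5 U libraries above both 40 U libraries in each gene. Replicates 3 and 4 covered 299 and 337 nt of SNHG1, against 294 and 247 nt in replicates 1 and 2. In GAS5 they covered 468 and 417 nt, against 414 and 411 nt. The 5 U lists were the shorter as a whole, with 16974 and 10122 peaks against 23034 and 18349. This order was not tested.

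The 15 sites common to all lists were set against the 1506 sites of the whole series with peaks in all 7 lists, taking for each list the mean fold of its peaks in the site weighted by width. All 15 lay below input in both RBFOX2 libraries, where 86.1% and 89.9% of the 1506 did. SLBP replicates 1 to 4 had 14, 14, 13 and 15 of the 15 below input, against 35.8%, 39.2%, 62.7% and 45.8%, and IgG had 11, against 42.7%. The counts for RBFOX2 were thus near what such sites showed in the series, and those for SLBP and IgG were above it. Of the 15, 10 lay below input in all 7 lists, 5 in each gene. Of the 1506, 18.2% did so. Both RBFOX2 values lay under the IgG value at 14 of the 15, against 89.5% of the 1506. Both lay under all 4 SLBP values at 4 of 6 sites in SNHG1 and 1 of 9 in GAS5, against 67.2%. That order was thus about as common in SNHG1 as elsewhere and rarer in GAS5. All 4 SLBP values lay under IgG at 4 of 6 and 4 of 9 sites, against 20.6%. The 40 U SLBP values lay both under or both above the 5 U values at 0 of the 15 sites, against 8.30% and 35.7%.

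RBFOX2 replicate 2 was lower than replicate 1 at each of the 15 sites, by 0.82 on average on the log2 scale. Over the 1506 sites it was lower at 81.7%, by 0.52 on average, so most of this gap was shared with the rest of the series. Over these sites the folds of the RBFOX2 replicates had a Pearson r of 0.79 and a Spearman rho of 0.66. Among the SLBP libraries r was highest between replicates 1 and 4 (0.82) and between 2 and 3 (0.82), and lowest between 3 and 4 (0.26). These correlations describe 15 sites of 2 transcripts whose folds in a list share 1 input library, and no test was made.

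**Figure D4:**
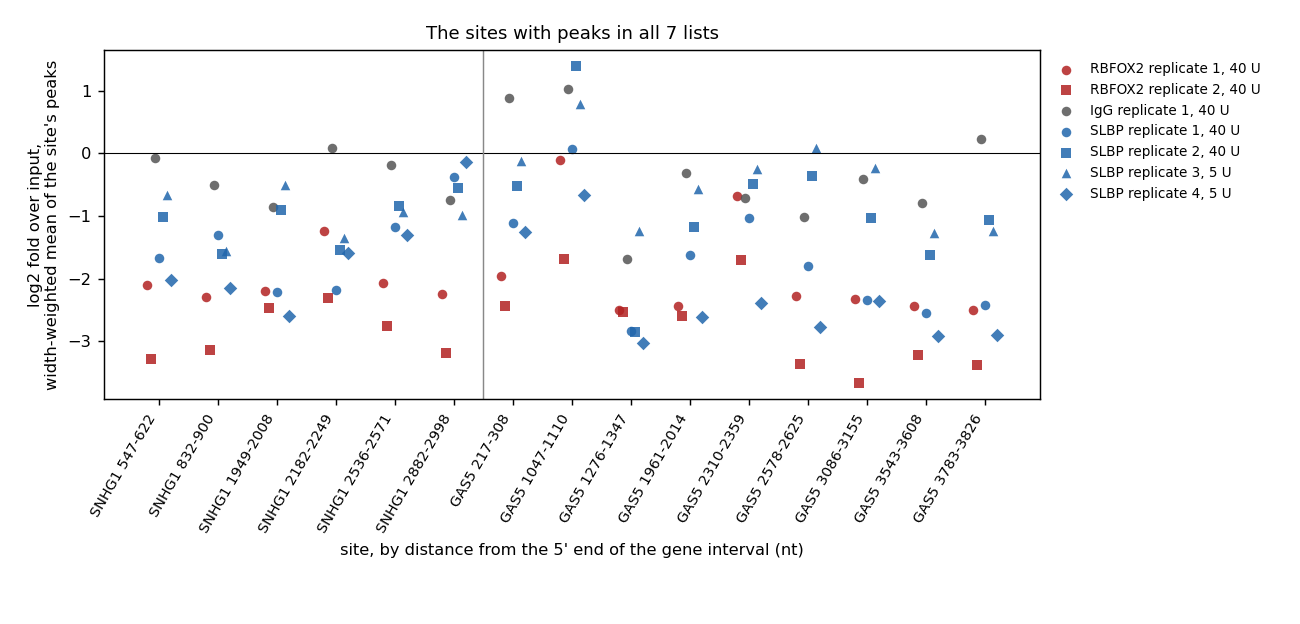
The 6 SNHG1 and 9 GAS5 sites with peaks in all 7 lists, in order along each gene. Each point is the log2 fold over input of 1 library, as a mean of the site's peaks weighted by width; colour gives the antibody and shape the replicate. The GAS5 site at 1047 to 1110 nt is the highest of the 15 in every library but SLBP replicate 4, and the last SNHG1 site has the widest step between RBFOX2 and SLBP.

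Along SNHG1, SLBP lay near the RBFOX2 values at some common sites and well above them at others. The first common site, at 547 to 622 nt from the 5' end (62622765 to 62622840), had log2 folds of −2.10 and −3.29 in RBFOX2 replicates 1 and 2, −0.08 in IgG, and −1.67, −1.02, −0.66 and −2.02 in SLBP replicates 1 to 4. Its RBFOX2 values lay under all others. The last, at 2882 to 2998 nt (62620389 to 62620505), had −2.25 and −3.18 in RBFOX2, −0.75 in IgG, and −0.38, −0.55, −0.98 and −0.13 in SLBP. Here SLBP averaged −0.51 ± 0.36 (SD, n = 4) and 3 of its 4 libraries lay above IgG. At 1949 to 2008 nt (62621379 to 62621438) SLBP replicates 1 and 4, at −2.22 and −2.59, reached the RBFOX2 values of −2.20 and −2.46, while replicates 2 and 3 stood at −0.90 and −0.51. The common sites at 832 to 900, 2182 to 2249 and 2536 to 2571 nt had values of −1.24 to −3.14 in RBFOX2, −0.51 to 0.09 in IgG and −0.84 to −2.18 in SLBP.

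The 4 other SNHG1 sites were thinly held. The site at 1226 to 1301 nt (62622086 to 62622161) had peaks in both RBFOX2 and both 5 U SLBP lists and in none of the 40 U SLBP or IgG lists. Its values were −0.18 and −0.53 in RBFOX2, −0.38 in SLBP replicate 3 and, lowest of the 4, −1.997 in replicate 4, so RBFOX2 was closer to input here than at any common site of the gene. The remaining 3 sites each had 1 peak in 1 RBFOX2 list, with log2 folds of 0.50, −1.17 and −0.27 at 176 to 195, 315 to 333 and 1667 to 1693 nt.

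One GAS5 site departed from the rest. At 1047 to 1110 nt from the 5' end (173836016 to 173836079) the log2 fold was −0.11 and −1.69 in RBFOX2 replicates 1 and 2, 1.02 in IgG, and 0.06, 1.39, 0.78 and −0.66 in SLBP replicates 1 to 4. This was the highest common site of GAS5 in each of the 7 libraries, and 4 of the 7 values lay above input. Peaks below input carry a −log10 p of 0 in both genes, so only peaks above input can pass a limit on it. The site held 5 of the 6 peaks of both genes with a −log10 p of at least 5: 1 in IgG, 2 in SLBP replicate 2 and 2 in SLBP replicate 3. The highest of them had a log2 fold of 2.33 and a −log10 p of 16.5 in SLBP replicate 2. The other of the 6 was an IgG peak in the first common site, with a log2 fold of 1.01. That limit was passed by 2 of 24 IgG peaks of the 2 genes, against 0.829% of the list, and by 2 of 22 and 2 of 25 peaks of SLBP replicates 2 and 3, against 1.87% and 2.06%. It was passed by 0 of 20 and 0 of 29 peaks of SLBP replicates 1 and 4, against 1.88% and 2.82%, and by 0 of 47 and 0 of 31 of RBFOX2 replicates 1 and 2, against 10.1% and 9.88%. These shares count pieces of a site as separate peaks and were not tested. The 2 peaks of SLBP replicate 2 touch, as do the 2 of replicate 3. Each pair is thus 1 stretch of the site at 1047 to 1110 nt. IgG shared the position, so it was not particular to SLBP.

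The other common sites of GAS5 ran from shallow to deep. The first, at 217 to 308 nt (173836818 to 173836909), was above input in IgG at 0.89, while RBFOX2 had −1.96 and −2.43 and SLBP replicates 1 to 4 had −1.12, −0.52, −0.12 and −1.25. The next after the high site, at 1276 to 1347 nt (173835779 to 173835850), was the lowest for IgG in either gene at −1.68. There SLBP replicates 1, 2 and 4 had −2.83, −2.84 and −3.02 and replicate 3 had −1.25, and SLBP was lower than RBFOX2 (−2.49 and −2.53) in 3 of 4 libraries. The lowest RBFOX2 value of the 15 sites was −3.67, in replicate 2 at 3086 to 3155 nt (173833971 to 173834040), where IgG had −0.40. At 2310 to 2359 nt (173834767 to 173834816) RBFOX2 replicates 1 and 2 had −0.69 and −1.70, IgG −0.72, and SLBP replicates 1 to 4 had −1.03, −0.48, −0.25 and −2.39, so the RBFOX2 values lay within the range of SLBP. The sites at 1961 to 2014, 2578 to 2625, 3543 to 3608 and 3783 to 3826 nt had −2.27 to −3.38 in RBFOX2 and −1.01 to 0.23 in IgG, with SLBP from −2.91 to 0.09.

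Of the 10 RBFOX2 peaks above input in the 2 genes, 9 lay outside the sites common to all lists. The median fold of RBFOX2 peaks was −2.43 within the common sites (51 peaks) and −0.24 elsewhere (27 peaks). Common sites were low for RBFOX2 in the whole series too, with medians of −0.94 and −1.50 in replicates 1 and 2 over the 1506 sites, against 0.73 and 0.86 over all peaks of the lists. Over the 1506 sites SLBP had medians of 0.38, 0.26, −0.24 and 0.11 in replicates 1 to 4, and IgG had 0.12. The median fold of SLBP peaks in the 2 genes was −1.17 within the common sites (86 peaks) and −0.11 elsewhere (10 peaks). Of the 17 SLBP peaks above input, 5 lay elsewhere. The RBFOX2 lists are the longest of the 7, with 74902 and 97594 peaks against 10122 to 28361, and 3 of the SNHG1 sites and 9 of the GAS5 sites had peaks in RBFOX2 lists alone. Only 2 of those 12 were in both replicates, both in GAS5. The one at 62 to 89 nt from the 5' end (173837037 to 173837064) had log2 folds of 1.41 and 0.55 in replicates 1 and 2, and the one at 3913 to 3947 nt had 0.10 and 0.19. None of these peaks reached a −log10 p of 5. No site was held by the 4 SLBP lists alone. How often sites of the whole series were held by a single antibody was not counted. These site counts therefore describe the 2 genes and do not set them apart.

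Outside the common sites, 2 GAS5 sites lay near input in several lists. The site that begins 2 nt from the 5' end of the interval (173837098 to 173837124) had −0.21 in RBFOX2 replicate 1, 0.39 in IgG, and 0.19, −0.42 and −0.26 in SLBP replicates 1, 2 and 4. The site at 945 to 991 nt had −1.05 in RBFOX2 replicate 1, 0.17 in IgG, and 0.19, −0.51 and 0.04 in the same SLBP libraries. The values straddled input in both, within 0.51 of it except in RBFOX2 at the second.

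Several sites were cut into touching or neighbouring peaks with different folds, and in SLBP the fold was mostly higher at the 3' end of the site. Of 12 common sites counted once per SLBP library that split them, the 3'-most peak was above the 5'-most in 11, against 52.9% of such cases in the whole series. The 12 cases came from 4 sites, so they are not independent. For RBFOX2 it was 6 of 11, against 57.0%, and for IgG 2 of 4, against 51.5%. The pattern was chosen after its values were seen and was not tested. At the high GAS5 site the first and last peaks had log2 folds of 0.17 and 2.33 in SLBP replicate 2, −0.60 and 1.82 in replicate 3, and −1.47 and −0.15 in replicate 4. RBFOX2 replicate 1 went the same way there, from −0.97 to 0.06, and IgG stayed level, at 1.17 and 0.99. At the last SNHG1 site the first and last peaks had −0.65 and −0.35, −0.80 and 0.01, −2.44 and −0.68, and −0.58 and 0.03 in SLBP replicates 1 to 4. The RBFOX2 libraries ran the other way there, with −2.16 and −2.37 in replicate 1 and −3.07 and −3.43 in replicate 2. At the SNHG1 site of 832 to 900 nt the last peak was the higher in both RBFOX2 libraries, with −3.34 and −1.36 in replicate 1 and −3.49 and −2.82 in replicate 2, and in the 3 SLBP libraries with a split. IgG had −0.26 and −1.72 there, the reverse order, but its last peak was 1 nt wide.

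The authors' lists give no read counts, so the depth behind each fold is unknown. How the authors scaled each list was not stated, so levels of different libraries may not be on 1 scale. A low fold says that a site's signal, as the authors scaled it, was smaller after precipitation than in the paired input. It does not give the amount of RNA.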

How the data were processed

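The series lists 24 samples; the 7 immunoprecipitations with peak lists were used, and their 7 inputs entered through the authors' folds alone. Each deposited list gives a strand, the authors' −log10 p and the authors' log2 fold over the paired input for every peak. No header names these columns, so the units come from the values themselves. Coordinates are on hg19. The submitters' processing notes name SAMtools, Picard, GATK, STAR and cutadapt; neither a peak caller nor a way of scaling the folds is given in the sources used here.

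Peaks were called enriched at a log2 fold of at least 3 and a −log10 p of at least 5. A site is the union of touching or overlapping peaks of the 7 lists; sites common to all lists and sites held by all libraries of 1 antibody alone were named, with the highest, lowest and widest peaks of each gene and library. Group means of library medians were compared by two-sided exact permutation tests (python 3.11.15, numpy 2.4.6, pandas 2.3.3; figures with matplotlib 3.10.9), tested on simulated data. Alternatives were means weighted by peak width, touching peaks joined, peak midpoints in place of overlap, other limits, pairing by replicate number and leaving out each library. Centring each list on its median was added after the values were seen. The genes, lists and limits were chosen with earlier results of these data known. RBFOX2 and SLBP replicates 1 and 2 share numbers only: the deviations of replicate 1 from the mean of replicates 1 and 2 had r = −0.08 between the antibodies over 1506 sites.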

Additional observations from a re-analysis of the deposited data

Results flagged for a closer look

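In a group of 4 to 10 libraries, a highest or lowest value was marked when its gap to the next exceeded Dixon's 95% limit, which is 0.829 of the range for 4 values. Over 25 sets of 4 SLBP values, 2 were marked; chance marks about 1 in 20 sets, and the sets overlap. Both concern SLBP replicate 3 in GAS5. Its peaks covered 468 nt of the gene, against 411 to 417 nt in the other 3 libraries (ratio 0.895). At the GAS5 site 1276 to 1347 nt from the 5' end its log2 fold was −1.25, against −2.83, −2.84 and −3.02 (ratio 0.894).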

How the results depend on the processing

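Of 74 alternatives, 66 kept the direction of the result (for IgG comparisons, also a value within 1 SD; for counts, within 1.5 times). The RBFOX2 minus SLBP difference was negative under all 12 alternatives in each gene. Not all alternatives could differ: peak midpoints returned the main value, and pairing by number repeats the mean difference from SLBP at 40 U alone. In SNHG1 both RBFOX2 medians lay under all SLBP medians, so leaving libraries out could not change the sign. The counts of 66 and 12 are therefore not counts of independent checks. Where both groups kept at least 2 libraries, the exact permutation p lay between 0.133 and 0.4 in SNHG1 and between 0.4 and 0.933 in GAS5. With replicates 1 and 2 paired by number (replicate block), the difference was −1.41 in SNHG1 and −0.49 in GAS5. This setting used a sign-flip test over 2 pairs, which cannot give a p under 0.5. In GAS5 it ranged from −1.15 without RBFOX2 replicate 1 to −0.01 without RBFOX2 replicate 2, and was −0.14 with touching peaks joined and −0.17 with each list centred; in SNHG1 leaving out 1 library gave −1.60 to −0.86.

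The SLBP 40 U minus 5 U difference turned sign in SNHG1 with width weighting (−0.0267) and with centring (−0.25), and in GAS5 with width weighting (0.19), with touching peaks joined (0.24), without SLBP replicate 1 (0.38) and without SLBP replicate 3 (0.45); leaving out 1 library gave −0.81 to 0.45 in GAS5 and 0.09 to 0.61 in SNHG1. The SNHG1 difference of 40 U SLBP from IgG was −0.81 with width weighting. Leaving out 1 library, the RBFOX2 minus IgG value ran from −2.25 to −1.52 in SNHG1 and from −2.32 to −1.17 in GAS5. With a log2 limit of 2, GAS5 had 1 enriched peak, in SLBP replicate 2; SNHG1 had 0 under every limit tried. The cause of these changes was not tested. Depth is unknown, and exact tests of these sizes cannot pass 0.05, so no difference between antibodies or RNase I amounts is called.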
